A study of Mus musculus with 7 samples.

Results

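The genes described here are 10 genes best known from tendon and cartilage, namely Comp, Thbs4, Cilp, Cilp2, Chad, Tnmd, Prg4, Scx, Mkx and Sox9, out of 56980 genes measured in the mouse heart. They were chosen by name, from what is known of the genes, with earlier results of these data in view. Expression was measured by RNA sequencing of myocardial tissue from wild-type male C57BL/6J mice that had been obtained at 8 weeks of age. In 3 mice the left coronary artery had been tied off to cause myocardial infarction (MI mice), and in 4 mice the same operation had been done without the ligation (sham-operated mice). The hearts of the MI mice were taken 4 days after the operation, and each mouse gave 1 library. The deposited values are FPKM, the fragments counted on a gene, scaled by its length and by the size of the library, so that levels can be set side by side between genes.

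Tendons, ligaments and cartilage owe their strength to collagen fibres and to secreted proteins that bind and space them. Comp and Thbs4 encode thrombospondins that bind collagens, Cilp and Cilp2 encode proteins of the intermediate layer of cartilage, Chad encodes chondroadherin, a leucine-rich repeat protein that binds cells and collagen, and Prg4 encodes lubricin, which lubricates joint surfaces. Tnmd encodes tenomodulin, a membrane protein of mature tendon cells. Scx (scleraxis) and Mkx (mohawk) are transcription factors of tendon cells, and Sox9 is the transcription factor that directs cartilage formation. The heart is not a tendon or a cartilage, but its valves and chordae share matrix genes with both, and fibroblasts that enter an infarct scar secrete a collagen-rich matrix.

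Comp, Thbs4 and Cilp were the genes of this set with the highest mean FPKM in the MI mice. In MI replicates 1 and 3 their FPKM was between 67.6 and 109, against 2.32 or less in every sham-operated mouse, and in MI replicate 2 it was between 0.932 and 5.35. In MI replicate 2, Prg4 at 1.14 was above Comp at 0.932. Cilp2, Chad, Tnmd, Prg4, Scx and Sox9 were also above every sham-operated mouse in MI replicates 1 and 3, at lower levels, and Mkx was near 0 in all mice. Of all 30504 genes above 0 in any mouse, 43.4% were above every sham-operated mouse in both MI replicates 1 and 3.

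The libraries held 19977713 to 23473543 fragments in the sham-operated mice and 21781014 to 23610870 in the MI mice. MI replicate 2 stood apart from the other MI mice. Across 11431 expressed genes, Pearson's r with the sham-operated mice lay between 0.984 and 0.987 in this mouse, 0.878 and 0.881 in MI replicate 1 and 0.903 and 0.906 in MI replicate 3. Among the sham-operated mice themselves it lay between 0.989 and 0.992. Mitochondrial genes held 26.5% to 27.4% of the fragments in the sham-operated mice, and 13.6%, 28.2% and 14.9% in MI replicates 1 to 3. The label of MI replicate 2 was kept, and the values of the 10 genes are given per mouse, with the main changes also given without it.

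In sham-operated hearts these genes were expressed at low levels, from 247 to 365 fragments per mouse for Cilp down to 9 or fewer for Cilp2, Mkx, Chad and Tnmd. The mean FPKM was 2.01 for Cilp, 1.28 for Scx, 0.757 for Prg4, 0.644 for Thbs4, 0.506 for Sox9 and 0.417 for Comp. Cilp2 followed at 0.0748, Mkx at 0.0366 and Chad at 0.0223, and Tnmd was listed at 0 in all 4 mice. In this order only Cilp and Scx, and Comp and Cilp2, had ranges that did not overlap between neighbours. In MI replicates 1 and 3 the order was different, with Comp at a mean FPKM of 103, Cilp at 90.9 and Thbs4 at 69.4, then Sox9 at 7.87, Scx at 7.16, Cilp2 at 2.82, Tnmd at 1.79, Prg4 at 1.78, Chad at 0.492 and Mkx at 0.0678. Between these 2 mice, the ranges of Sox9 and Scx overlapped, as did those of Tnmd and Prg4. With all 3 MI mice, every pair of neighbours in the order of the group means overlapped in range.

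**Figure D1:**
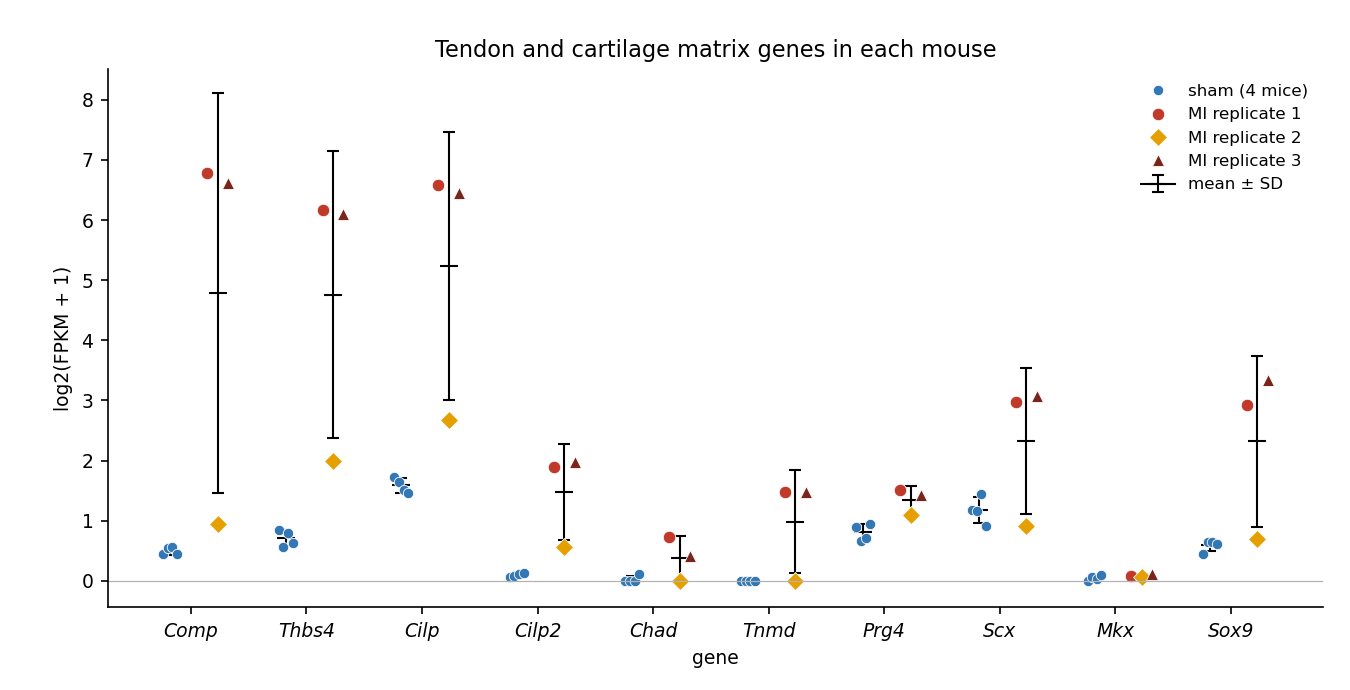
Expression of the 10 genes in each mouse, as log2(FPKM + 1) on the vertical axis, with 4 sham-operated mice in blue, the 3 MI mice by replicate and black bars for the mean ± SD of each group. MI replicates 1 and 3 lie nearer to each other than to MI replicate 2 for every gene except Mkx, and MI replicate 2 lies between them and the sham-operated mice for Comp, Thbs4, Cilp, Cilp2, Sox9 and Prg4 and just below the lowest sham-operated mouse for Scx.

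No gene of the 10 passed an adjusted p of 0.05 for MI against sham. The limma test with a trend was fitted to the 11431 genes that reached 1 FPKM in 3 or more mice, where 2 genes were called higher (0.0175%) and 1 lower (0.00875%). Only Cilp, Thbs4, Scx and Prg4 were in it, and Thbs4 and Prg4 entered through the MI mice alone, so that their presence there already depended on being higher in MI. The other 6 genes were too low in at least 5 mice and take their values from the same fit to all 30504 genes above 0 in any mouse, where 20 genes were called higher (0.0656%) and none of the 10. At an unadjusted p under 0.05 with a log2 fold change over 0.5, 7 of the 10 genes were higher in the fit to all genes, beside 9.33% of all genes, and 3 of the 4 in the filtered fit, beside 17.8%. In 6 of the 10, Comp, Thbs4, Cilp, Cilp2, Sox9 and Prg4, the lowest MI mouse exceeded the highest sham-operated mouse, beside 12.0% of all 30504 genes. For these 6 the exact two-sided permutation p was 0.0571, and for the other 4 it was 0.286. The two-sided p was taken as 2 times the smaller one-sided p, and in that form 0.0571 is the smallest value over 35 splits of 7 mice.

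The median log2 fold change was 1.26 over the 10 genes in the fit to all genes, where the median gene was at 0.062. It was 2.40 over the 4 genes of the filtered fit, where the median gene was at 0.21, and the changes relative to that median gene were 3.84 for Thbs4, 3.44 for Cilp, 0.94 for Scx and 0.33 for Prg4. The median difference of the 10 genes from the sham mean was 1.79 in MI replicate 1, 0.20 in MI replicate 2 and 1.89 in MI replicate 3. Without MI replicate 2, limma called 9 of the 10 genes higher, all but Mkx, beside 35.8% of all genes, and in the same 9 both remaining MI mice were above every sham-operated mouse, beside 43.4% of all genes. MI replicate 2 on its own was above every sham-operated mouse for 6 of the 10 genes, beside 19.3% of all genes.

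Comp (ENSMUSG00000031849), cartilage oligomeric matrix protein, is the fifth thrombospondin. It sits on GRCm38 chromosome 8 (plus strand, 70373558 to 70382066). Its FPKM was 0.353, 0.460, 0.487 and 0.367 in sham replicates 1 to 4, from 25 to 39 fragments, and 109, 0.932 and 97.3 in MI replicates 1 to 3, from 8094, 72 and 7840 fragments. The groups did not overlap, but MI replicate 2 was much nearer to the sham-operated mice than to the other MI mice. Relative to the sham mean of 0.417 ± 0.0667 (SD, n = 4), the ratio was 262 in MI replicate 1, 2.24 in MI replicate 2 and 234 in MI replicate 3. By FPKM, Comp went from place 13601 to 14780 among the genes detected in the sham-operated mice to place 330 in MI replicate 1 and 379 in MI replicate 3, and stood at place 11214 in MI replicate 2. Its log2 fold change was 4.28 (standard error 1.38, limma adjusted p = 0.188), place 7 of 30504 genes by size, and 6.20 (standard error 0.07) without MI replicate 2. Comp was outside the filtered set because only 2 mice reached an FPKM of 1.

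Thbs4 (ENSMUSG00000021702), thrombospondin-4, is a pentameric thrombospondin of tendon, muscle and heart. It sits on chromosome 13 (minus strand, 92751590 to 92794818). Its FPKM was 0.799, 0.483, 0.740 and 0.552 in sham replicates 1 to 4 and 71.1, 3.01 and 67.6 in MI replicates 1 to 3. All MI mice were above all sham-operated mice, and MI replicate 2 was at 4.67 times the sham mean, against 110 and 105 times in MI replicates 1 and 3. On the log2 scale the change was 4.05 (standard error 0.96, limma adjusted p = 0.108), place 8 of 11431 genes, and 5.42 without MI replicate 2.

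Comp and Thbs4 belong to the same branch of the thrombospondin family, whose members assemble as pentamers. In the 4 sham-operated mice Thbs4 was slightly above Comp, by 0.41, 0.02, 0.23 and 0.18 on the log2(FPKM + 1) scale. In MI replicates 1 and 3 Comp was above Thbs4 by 0.61 and 0.52, and in MI replicate 2 the difference of Comp minus Thbs4 was -1.05. The change of that difference was 0.24 (exact two-sided permutation p = 0.743, and 0.743 adjusted over 5 pairs of genes), so the groups overlapped, and its sign rested on single mice, with 0.77 without MI replicate 2, -0.06 without MI replicate 1 and -0.01 without MI replicate 3.

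The 3 other thrombospondins were higher too at an unadjusted p under 0.05 with a log2 fold change over 0.5, beside 9.33% of all genes in the fit without a filter, and none at an adjusted p under 0.05. Thbs1 encodes a trimeric thrombospondin known to activate latent TGF-beta. Its FPKM was 1.5 to 2.62 in the sham-operated mice and 52.6, 1.65 and 58.5 in the MI mice, where MI replicate 2 lay inside the sham range (log2 fold change 2.72, standard error 1.02, limma adjusted p = 0.112). Thbs2, a trimer known for its role in collagen fibre assembly, was 3.06 to 3.66 in the sham-operated mice and 32.0, 5.17 and 27.3 in the MI mice. Thbs3, a pentamer like Comp, was 0.675 to 0.788 and then 7.48, 1.28 and 7.09. The groups of Thbs2 and Thbs3 did not overlap, beside 12.0% of all 30504 genes. Thbs3 passed the expression filter through the MI mice alone.

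Added over the 5 genes, thrombospondin FPKM was 7.24 ± 0.51 (SD, n = 4) in the sham-operated mice and 272, 12.0 and 258 in the MI mice. Comp and Thbs4 together held 14.8% ± 2.92 of it (SD, n = 4) in the sham-operated mice. They held 66.2%, 32.7% and 64.0% in MI replicates 1 to 3. In MI replicate 2 Thbs4 alone held 25.0%, against 6.83% to 11.2% in the sham-operated mice, while Comp, at 7.74%, was close to its sham range of 4.61% to 7.20%.

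**Figure D2:**
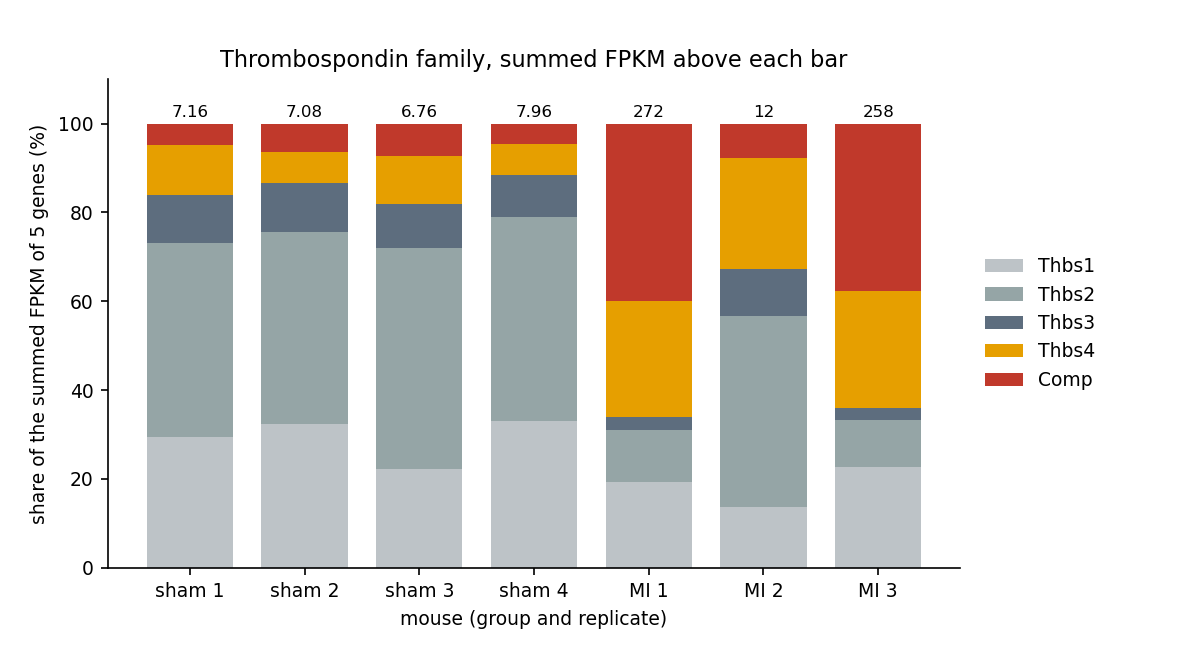
Share of each thrombospondin gene in the summed FPKM of the family of 5 in each mouse, in percent, with the summed FPKM printed above each bar. Thbs2 and Thbs1 fill most of the bars of the sham-operated mice, and Comp and Thbs4 fill 66.2% and 64.0% of those of MI replicates 1 and 3.

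Cilp (ENSMUSG00000042254), cartilage intermediate layer protein, is a secreted protein known to bind TGF-beta. It sits on chromosome 9 (plus strand, 65265180 to 65280605). Its FPKM was 2.32, 2.13, 1.84 and 1.76 in sham replicates 1 to 4 and 95.2, 5.35 and 86.6 in MI replicates 1 to 3, from 849 fragments in MI replicate 2 and 14530 and 14330 in the other MI mice. All 3 MI mice were above all sham-operated mice, at 47.3, 2.66 and 43.0 times the sham mean. On the log2 scale the change was 3.65 (standard error 0.89, limma adjusted p = 0.108), place 13 of 11431 genes, and 4.93 without MI replicate 2.

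Cilp2 (ENSMUSG00000044006), its paralog, sits on chromosome 8 (minus strand, 69880369 to 69887687). Only 5 to 9 fragments per sham-operated mouse were counted, an FPKM of 0.0517 to 0.104, against 254, 46 and 300 fragments, an FPKM of 2.70, 0.471 and 2.95, in the MI mice. The ratios to the sham mean were 36.1, 6.30 and 39.4, and MI replicate 2 was further from the sham-operated mice for Cilp2 than for any other of the 7 genes whose ratio is plotted. Its log2 fold change of 1.37 (standard error 0.34, limma adjusted p = 0.188) is small beside those ratios, because the 1 added to each FPKM before the logarithm is larger than the values of the sham-operated mice and of MI replicate 2. Without MI replicate 2 it was 1.83.

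On the log2(FPKM + 1) scale the difference of Cilp minus Cilp2 was 1.32 to 1.66 in the sham-operated mice and 4.70, 2.11 and 4.47 in the MI mice. The groups did not overlap and the change of 2.28 had an exact two-sided permutation p of 0.0571 (0.143 adjusted over 5 pairs). With a pseudocount of 0.1 the change was 0.79 (exact permutation p = 0.229). As ratios of FPKM to the sham mean, Cilp and Cilp2 were at 47.3 and 36.1 in MI replicate 1 and at 43.0 and 39.4 in MI replicate 3, while in MI replicate 2 Cilp was lower than Cilp2, at 2.66 and 6.30.

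The promoters of the 3 matrix genes of this set whose groups did not overlap and which have an entry in the RefSeq promoter table (GRCm38.p6) are shown so that their sequences can be compared. The table holds 300 bases around the start of a gene, most of them before it. Windows were searched for 5 of the 10 genes, Cilp, Cilp2, Thbs4, Chad and Tnmd. The other genes of the set were left out of this search, so nothing is said of their promoters. Capitals mark each CANNTG, the core letters of the E-box that basic helix-loop-helix factors such as scleraxis bind. The windows are chr9:65264930-65265229 on the plus strand for Cilp, chr8:69887343-69887642 on the minus strand for Cilp2 and chr13:92794769-92795068 on the minus strand for Thbs4.
Cilp: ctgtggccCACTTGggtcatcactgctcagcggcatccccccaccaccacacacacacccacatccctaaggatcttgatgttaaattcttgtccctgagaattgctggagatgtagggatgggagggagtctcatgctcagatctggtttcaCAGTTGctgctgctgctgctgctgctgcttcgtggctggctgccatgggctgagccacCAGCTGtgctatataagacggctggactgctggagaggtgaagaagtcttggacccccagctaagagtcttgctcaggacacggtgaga
Cilp2: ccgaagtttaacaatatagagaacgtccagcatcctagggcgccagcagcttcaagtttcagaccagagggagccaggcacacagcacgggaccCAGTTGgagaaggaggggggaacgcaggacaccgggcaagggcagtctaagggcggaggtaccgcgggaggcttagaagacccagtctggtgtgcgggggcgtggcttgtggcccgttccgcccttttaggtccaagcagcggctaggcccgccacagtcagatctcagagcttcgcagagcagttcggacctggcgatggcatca
Thbs4: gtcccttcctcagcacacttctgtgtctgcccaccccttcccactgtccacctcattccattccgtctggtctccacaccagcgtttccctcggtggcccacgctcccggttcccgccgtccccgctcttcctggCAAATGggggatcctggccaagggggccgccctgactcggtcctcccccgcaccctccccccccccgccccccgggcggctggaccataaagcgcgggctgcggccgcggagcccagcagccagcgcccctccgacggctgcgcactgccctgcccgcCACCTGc

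CANNTG, which reads the same on both strands, stood 3 times in the Cilp window, at positions -242, -97 and -39 from the RefSeq start. It stood once in the Cilp2 window at -156, 2 times in the Thbs4 window at -115 and 44, once in the Chad window at -49 and nowhere in the Tnmd window. These letters are common, and 72.3% of all 32851 promoters of the same length held them. The form CAGATG, held by 17.2% of all promoters, was in none of the 5 windows.

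Other letters were searched on both strands. Thbs4 held CATTCC, the core bound by TEAD factors, at -197 and -192, as did 14.7% of all promoters somewhere in the window. It also held CAGACA, which Smad factors bind, at -227, as did 21% of promoters. The short Sox core ACAAT was found at -240 in Cilp2 and at -69 in Tnmd, and in 31.0% of promoters. The longer Sox form AACAAAG was held by 5.85% of promoters and by none of these 5. TGANTCA, the letters of the AP-1 site, was held by 7.81% of promoters and again by none of the 5. Chad held TATAAA at -28, as did 13.6% of promoters. GC content was 72.0% in the Thbs4 window, 61.3% in Cilp2, 61.0% in Chad, 55.7% in Cilp and 40.0% in Tnmd.

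Chad (ENSMUSG00000039084) sits on chromosome 11 (plus strand, 94565047 to 94569127), where it overlaps Acsf2 on the opposite strand without shared exon bases. It gave 0, 0, 0 and 3 fragments in sham replicates 1 to 4 and 24, 0 and 13 in MI replicates 1 to 3, or an FPKM of 0.0894 in sham replicate 4, 0.656 in MI replicate 1 and 0.328 in MI replicate 3. MI replicate 2, at 0, was like the sham-operated mice. Pooled over the mice of each group, 37 fragments against 3 gave a ratio per sequenced fragment of 15.9 (95% exact interval 5.03 to 80.5, counting error only). The limma log2 fold change was 0.35 (standard error 0.16, adjusted p = 0.211), or 0.54 without MI replicate 2.

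Prg4 (ENSMUSG00000006014) sits on chromosome 1 (minus strand, 150449412 to 150466165). Its FPKM was 0.856, 0.592, 0.647 and 0.934 in sham replicates 1 to 4 and 1.86, 1.14 and 1.69 in MI replicates 1 to 3. The groups did not overlap, and MI replicate 2 lay nearer to the other MI mice than it did for Comp, Thbs4 or Cilp, with ratios to the sham mean of 2.46, 1.5 and 2.23. Its log2 fold change was 0.54 (standard error 0.13, limma adjusted p = 0.108). Prg4 shares 204 exon bases with Tpr, a nuclear pore gene on the opposite strand that stood at an FPKM of 10.5 to 11.4 in all 7 mice. Whether the counting used the strand is not given in the sources used here, so the level of Prg4 is uncertain.

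Tnmd (ENSMUSG00000031250) is the gene of this set most tied to mature tendon. It sits on chromosome X (plus strand, 133850980 to 133865577). No fragment was counted in any sham-operated mouse or in MI replicate 2, against 53 fragments (FPKM 1.8) in MI replicate 1 and 57 fragments (FPKM 1.78) in MI replicate 3. Set against the 3 fragments that a count of 0 over all 4 sham-operated mice allows, Tnmd was at least 71.0-fold higher in MI replicate 1 and at least 70.5-fold higher in MI replicate 3. These 2 ratios take the MI counts as exact. Pooled over the mice of each group, 110 fragments against 0 gave a ratio per sequenced fragment of at least 37.7 (lower end of the 95% exact interval, counting error only). The groups overlapped through MI replicate 2, with a log2 fold change of 0.99 (standard error 0.36, limma adjusted p = 0.188), or 1.48 without that mouse, values that depend on the pseudocount because the sham-operated mice are at 0. Its promoter window, chrX:133850758-133851057 on the plus strand, is shown because it was the only 1 of the 5 with no CANNTG.
Tnmd: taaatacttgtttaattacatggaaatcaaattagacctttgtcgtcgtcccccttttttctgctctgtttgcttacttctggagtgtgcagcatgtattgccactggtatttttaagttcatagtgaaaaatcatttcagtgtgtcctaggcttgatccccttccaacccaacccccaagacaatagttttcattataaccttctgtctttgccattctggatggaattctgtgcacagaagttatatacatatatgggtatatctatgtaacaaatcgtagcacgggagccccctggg

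Among the transcription factors, Scx (ENSMUSG00000034161) sits on chromosome 15 (plus strand, 76457452 to 76459458), inside Bop1 on the opposite strand, with no shared exon bases in GENCODE M21. The FPKM values imply a length of 3042 bases for Scx, against 2007 in that release. Whether the longer form shares exon bases with Bop1 is not known. The FPKM of Scx was 1.26, 1.24, 1.71 and 0.889 in sham replicates 1 to 4 and 6.87, 0.886 and 7.46 in MI replicates 1 to 3. MI replicate 2 was just below the lowest sham-operated mouse, so the groups overlapped, while MI replicates 1 and 3 were 5.39 and 5.85 times the sham mean. Its log2 fold change was 1.15 (standard error 0.50, limma adjusted p = 0.130) and 1.85 without MI replicate 2. Bop1 was at 5.66 to 6.17 in the sham-operated mice and at 9.68, 5.42 and 9.0 in the MI mice, and because the use of the strand is not given, the part of Bop1 in the counts of Scx was not tested.

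Mkx (ENSMUSG00000061013), the other tendon factor, was barely detected. It gave 0, 5, 3 and 7 fragments in the sham-operated mice and 6, 5 and 9 in the MI mice, with an FPKM of at most 0.0787, and it shares 201 exon bases with AC148004.2 on the same strand. The pooled ratio per sequenced fragment was 1.72 (95% exact interval 0.835 to 3.60, counting error only), so a difference was not detectable at this depth. The change of Scx minus Mkx was 1.12 (exact two-sided permutation p = 0.229, and 0.381 adjusted over 5 pairs), or 1.81 without MI replicate 2.

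Sox9 (ENSMUSG00000000567) sits on chromosome 11 (plus strand, 112782224 to 112787760). Its FPKM was 0.367, 0.558, 0.567 and 0.533 in sham replicates 1 to 4 and 6.64, 0.620 and 9.11 in MI replicates 1 to 3. The groups did not overlap, but MI replicate 2 was only 1.22 times the sham mean, against 13.1 and 18.0 times in the other MI mice. Its log2 fold change was 1.73 (standard error 0.60, limma adjusted p = 0.188), or 2.55 without MI replicate 2.

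The groups did not overlap in the difference between the tendon factor Scx and the cartilage factor Sox9. Scx was above Sox9 on the log2(FPKM + 1) scale by 0.30 to 0.79 in the sham-operated mice, and the difference was 0.04, 0.22 and -0.26 in MI replicates 1 to 3. The change of -0.58 did not rest on MI replicate 2 (-0.69 without it), with a pseudocount of 0.1 it was -1.09, and the exact two-sided permutation p was 0.0571 (0.143 adjusted over 5 pairs). Tnmd minus Scx, a gene and the factor known to act upstream of it, changed by -0.16 (exact permutation p = 0.514, and 0.643 adjusted over 5 pairs), a value whose sign turned with a pseudocount of 0.1 and with rescaling to TPM.

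Fibroblast genes moved with these genes in the same mice. The 10 fibroblast markers, Pdgfra, Tcf21, Dcn, Lum, Dpt, Col1a1, Col1a2, Col3a1, Postn and Fn1, summed to an FPKM of 161 to 189 in the sham-operated mice and to 2780, 287 and 2190 in the MI mice. Of these 10, 9 did not overlap between the groups, beside 16.1% of the 11431 genes. Their ratios to the sham mean ranged from 4.35 to 57.0 in MI replicate 1 (median 18.5), from 1.12 to 2.99 in MI replicate 2 (median 1.52) and from 2.89 to 55.4 in MI replicate 3 (median 13.6). The ratio of Comp was above those of all 10 markers in MI replicates 1 and 3, and of 9 of 10 in MI replicate 2, where Postn was higher. In bulk tissue a gene that more cells express and a gene that each cell expresses more cannot be told apart.

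**Figure D3:**
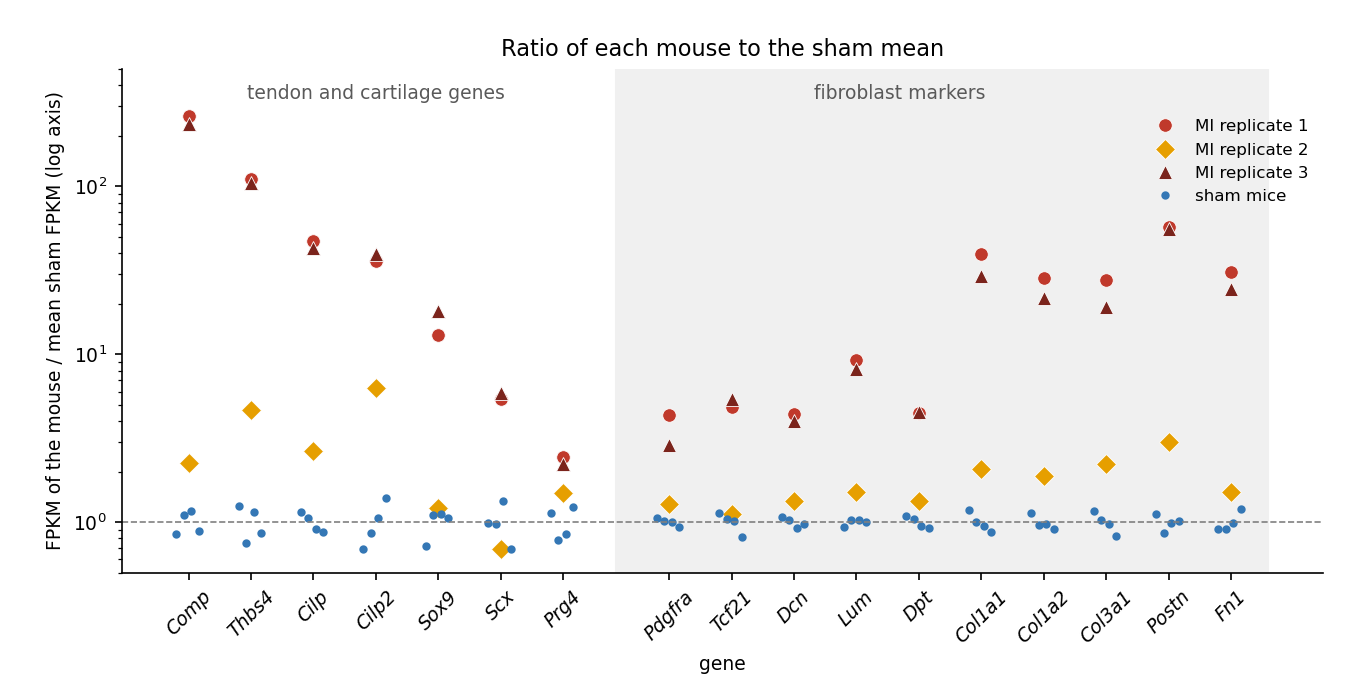
FPKM of each mouse divided by the mean sham FPKM, on a log axis, for the 7 tendon and cartilage genes with a mean sham FPKM over 0.05 (left) and for 10 fibroblast markers (grey), with sham-operated mice in blue. Comp reaches 262 and 234 in MI replicates 1 and 3, above Postn at 57.0 and 55.4, while Prg4 at 2.46 and 2.23 is below all 10 markers in those mice.

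To ask which genes moved more than fibroblast genes at large, the mean log2(FPKM + 1) of the 10 markers was subtracted from each gene within each mouse. That mean was 3.50 to 3.67 in the sham-operated mice and 7.15, 4.24 and 6.91 in the MI mice. Thbs4 was -3.00 to -2.74 relative to it in the sham-operated mice and -0.98, -2.23 and -0.81 in the MI mice, a change of 1.52. Cilp was -2.04 to -1.92 and then -0.56, -1.57 and -0.46, a change of 1.12. For both genes the MI mice were above all sham-operated mice, MI replicate 2 included (exact two-sided permutation p = 0.0571, and 0.0635 adjusted over the 10 genes). This holds against the mean and not against every marker. The log2 fold change of the marker Postn was 4.10, against 4.05 for Thbs4 and 3.65 for Cilp. The marker Col1a1, at 3.69, was also above Cilp, and the other markers changed less. For Comp the change relative to the marker mean was 1.75, but MI replicate 2 was at -3.29, below the sham range of -3.23 to -2.97, and the groups overlapped (exact permutation p = 0.286, and 0.286 adjusted). It was 2.74 without that mouse, and 2.78 with a pseudocount of 0.1 (exact permutation p = 0.0571). The same pseudocount gave 2.42 for Thbs4. On the log2(FPKM + 1) scale Sox9, Scx and Prg4 were lower relative to the markers in every MI mouse, with changes of -0.79, -1.38 and -1.99, each with an exact permutation p of 0.0571 (0.0635 adjusted). With a pseudocount of 0.1 the change was -0.09 for Sox9 (exact permutation p = 0.743) and -1.71 for Prg4 (exact permutation p = 0.114). Cilp2, Chad, Tnmd and Mkx were at or near 0 in the sham-operated mice, so on this scale their difference is mostly the marker mean with its sign turned, and no direction is read from it. As ratios of FPKM to the sham mean, which use no pseudocount, Cilp2 at 36.1 and 39.4 was above the median marker at 18.5 and 13.6 in MI replicates 1 and 3. Tnmd, at 71.0 and 70.5 or more, and Chad, at 29.3 and 14.7 with a sham mean that rests on 3 fragments, were above it too. Sox9 at 13.1 and 18.0 was below it in MI replicate 1 and above it in MI replicate 3, and Scx and Prg4 were below it in both.

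Other tendon genes were counted from a list of 18. At an unadjusted p under 0.05 and a log2 fold change over 0.5, 13 of the 17 that were detected were higher in the fit to all genes and none lower, beside 9.33% and 1.77% of all genes, none passed an adjusted p of 0.05, and 10 did not overlap between the groups, beside 12.0%. Without MI replicate 2, limma called 16 of the 17 higher at an adjusted p under 0.05, beside 35.8% of all genes. With all mice, the median log2 fold change of the 17 genes was 1.17. Of those with the highest expression, Dpt, the fibroblast matrix gene dermatopontin, was at 34.2 to 40.4 in the sham-operated mice and at 167, 49.4 and 168 in the MI mice. Aspn, the small leucine-rich proteoglycan asporin, was at 6.81 to 7.85 and then at 99.4, 9.47 and 98.8, and Fibin at 4.42 to 4.78 and then at 46.0, 7.11 and 64.5. The matrix genes Tnc and Col12a1, picked after their values were seen, were at or below the level of Comp in the sham-operated mice. Tnc was at 0.247 to 0.297 and then at 23.2, 0.735 and 14.8, and Col12a1 at 0.0698 to 0.0907 and then at 8.77, 0.182 and 8.47. Kera, the corneal and tendon proteoglycan keratocan, was listed at 0 in all mice, and 2 genes of the list, Dpt and Pdgfra, are also among the fibroblast markers.

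Most other cartilage genes were low in every mouse. Of a list of 25, only Prelp and Cytl1 reached the expression filter, and in the fit to all genes 5 of the 24 detected were higher at an unadjusted p under 0.05 with a log2 fold change over 0.5, beside 9.33% of all genes. None passed an adjusted p of 0.05, 7 did not overlap between the groups, beside 12.0% of all genes, and the median log2 fold change was 0.26. Without MI replicate 2, limma called 17 of the 24 higher at an adjusted p under 0.05, beside 35.8% of all genes. Prelp, a collagen-binding leucine-rich repeat protein, was at 11.5 to 12.3 in the sham-operated mice and at 43.2, 12.0 and 39.0 in the MI mice. Cytl1 was at 1.70 to 2.11 and then at 1.94, 3.29 and 3.13, with MI replicate 2 the highest. Further cartilage matrix genes were picked after their values were seen, so they are no test of the name of the set. Col2a1, the main cartilage collagen, was at most 0.00469 in the sham-operated mice and was at 0.288, 0.00414 and 0.302 in the MI mice. Acan, the large cartilage proteoglycan aggrecan, was at most 0.0213 and then at 0.558, 0.00942 and 0.673. Other matrix genes of the list reached higher levels in MI replicates 1 and 3. Col9a2, a chain of collagen IX, was at 0.0733 to 0.0961 and then at 4.68, 0.0969 and 8.45. Matn4, matrilin-4, was at 0.0161 to 0.0615 and then at 4.78, 0.112 and 5.03, and Col11a1, a chain of collagen XI, was at 0.00645 to 0.0156 and then at 2.70, 0.0278 and 2.29. Others of the list stayed near 0 or did not rise. Snorc was at 0 in all mice, Col10a1 at most 0.0541 and Crtac1 at most 0.0524. Sox6 was at 0.593 to 0.763 in the sham-operated mice and at 0.414, 0.646 and 0.559 in the MI mice. The name of the set says where its genes are best known and names no cell type.

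Among 17 growth factors, receptors and Smads known to act on tendon and cartilage cells, 6 were higher at an unadjusted p under 0.05 with a log2 fold change over 0.5 in the fit to all genes, beside 9.33% of all genes, none were lower, beside 1.77%, and none passed an adjusted p of 0.05, with a median of 0.47. Without MI replicate 2, limma called 14 of the 17 higher at an adjusted p under 0.05, beside 35.8% of all genes. Tgfb3, the TGF-beta isoform known from tendon development, was at 5.38 to 6.48 in the sham-operated mice and at 58.4, 8.06 and 53.0 in the MI mice (log2 fold change 2.20, standard error 0.62, limma adjusted p = 0.108). Tgfbr2, its type II receptor, was at 5.85 to 6.16 and then at 20.9, 6.72 and 17.4. Bmpr1a, a BMP receptor, was at 12.6 to 13.1 and then at 15.7, 11.9 and 15.1, on both sides of the sham range. Gdf5, a joint and tendon growth factor picked after its values were seen, was at most 0.0184 in every mouse. Gdf6, its relative, also picked later, was at 0.209 to 0.255 in the sham-operated mice and at 4.24, 0.225 and 4.13 in the MI mice.

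**Figure D4:**
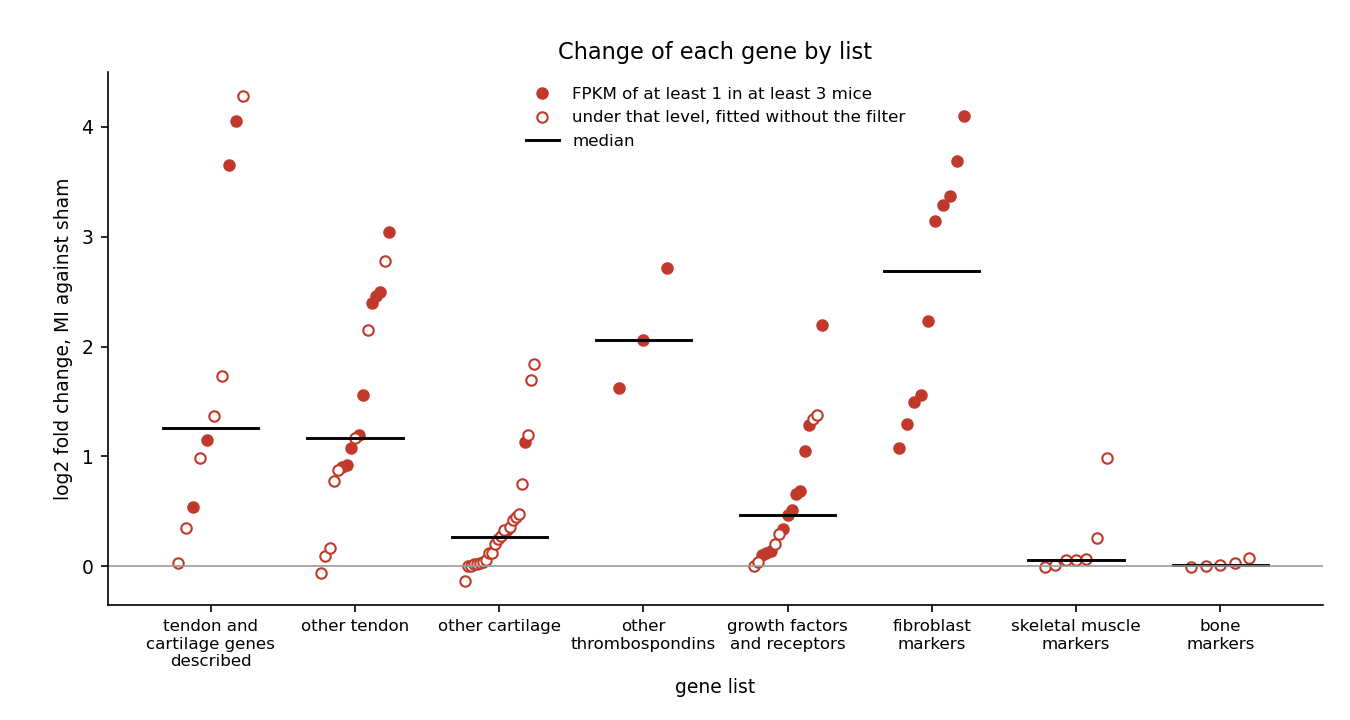
Log2 fold change of MI against sham (vertical axis) for each gene of 8 lists, with filled circles for genes that reached 1 FPKM in 3 or more mice, open circles for lower genes and a line at the median. The median is 1.26 for the 10 genes described, 1.17 for other tendon genes, 0.26 for other cartilage genes, 2.69 for fibroblast markers and 0.01 for bone markers.

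Markers of other cell types and tissues were also summed in each mouse. Skeletal muscle markers summed to 0.717 to 1.14 in the sham-operated mice and to 3.23, 0.799 and 3.86 in the MI mice, with Myh4 at 0 in all, and bone markers to at most 0.0804 and then 0.137, 0.0543 and 0.16, with Sp7 at 0 in all sham-operated mice. Macrophage markers summed to 159 to 205 and then to 1060, 192 and 901, and cardiomyocyte markers to 12600 to 13700 and then to 8620, 12700 and 9060. Endothelial markers summed to 114 to 130 and then to 143, 107 and 151, and smooth muscle and valve markers to 56.7 to 82.8 and then to 138, 56.1 and 178. Adipocyte markers summed to 0.211 to 0.773 in the sham-operated mice and to 87.5, 0.175 and 262 in the MI mice, mainly from Cfd, which is also known as complement factor D. The rest of that list is named after its values were seen. Adipoq was at most 0.144 in the sham-operated mice and at 8.32, 0 and 26.8 in the MI mice. Plin1 was at most 0.0435 and then at 0.974, 0 and 4.31, and Ucp1 at most 0.0777 in every mouse. Mesothelium markers summed to 3.64 to 8.51 and then to 24.6, 18.5 and 36.8, and skin markers to 0.578 to 0.872 and then to 3.72, 2.18 and 4.00, with Krt5 at 0 in all mice. Krt14 was the only gene of all the lists that passed an adjusted p of 0.05 (limma adjusted p = 0.0323), listed at 0 in all sham-operated mice and at 1.44, 1.08 and 1.71 in the MI mice. It entered the filtered fit through the MI mice alone, so that its presence there already depended on being higher in MI. At an unadjusted p under 0.05 with a log2 fold change over 0.5 in the fit to all genes, which 9.33% of all genes passed, the markers were counted over those detected. Higher were 10 of 10 fibroblast, 8 of 8 macrophage, 4 of 5 mesothelium, 2 of 4 adipocyte, 2 of 4 skin, 1 of 6 smooth muscle and valve, 1 of 7 skeletal muscle, 0 of 6 endothelial and 0 of 5 bone markers. Of the cardiomyocyte markers, 4 of 8 were lower with a log2 fold change under -0.5, beside 1.77% of all genes. The part of these cell types in the levels of the 10 genes was not tested.

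The genes most like each of the tested genes over the 7 mice were found by Pearson's r of log2(FPKM + 1), as a description, since the difference between MI replicates 1 and 3 and the other 5 mice sets most of each r. For Cilp they were Mfap4 (r = 0.9997), a microfibril-associated protein gene, and Cthrc1 (r = 0.9994), a collagen triple helix gene of scar fibroblasts. For Thbs4 they were Postn (r = 0.9997), a matricellular protein gene of activated fibroblasts, and again Mfap4 (r = 0.9994). Mfap4 was at 3.84 to 4.79 in the sham-operated mice and at 155, 9.67 and 151 in the MI mice, which is the pattern of Cilp and Thbs4 with an intermediate MI replicate 2. For Comp, added after its values were seen, they were Actn1 (r = 0.9999) and Mrc2 (r = 0.9996), for Scx Zbtb8os (r = 0.9985) and Zfp664 (r = 0.9976), and for Prg4 Snord47 (r = 0.9931) and Stx18 (r = 0.9928). The number of genes with r over 0.99 among the 11427 compared was 847 for Comp, 368 for Cilp, 303 for Thbs4, 93 for Scx and 4 for Prg4.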

How the data were processed

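The authors deposited FPKM values for 56980 Ensembl genes in 7 libraries, with 0 columns of values left unused. The authors' processing notes name CASAVA 1.8, HISAT2, SAMtools 1.3.1, edgeR and mm10, with no roles. The annotation, the counting program and the use of the strand are not given in the sources used here. Groups came from the treatment labels, and p-values measure the spread between libraries. Gene symbols and positions are from GENCODE M21 (GRCm38), which held 91.4% of the identifiers. Gene lengths implied by the FPKM values differ from that release for 6 of the 10 genes, so levels of these genes are on the length that the authors used.

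FPKM values move in steps of 1 fragment. Lengths from 20 to 120000 bases were searched for the one that brought every mouse within 0.05 of a whole number, which gave whole fragments for 30503 of 30504 genes above 0. These gave the depths and the fragment numbers. Intervals and limits at 0 fragments cover counting error only.

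Values were analysed as log2(FPKM + 1), on which fold changes of low genes are understated, with limma 3.58.1 (lmFit, eBayes with trend) in R 4.3.3 and Benjamini-Hochberg adjustment over all genes tested. Differences between genes were tested with exact two-sided permutation over 35 splits. A check on simulated data preceded the fits. NumPy 2.4.6, SciPy 1.17.1, matplotlib 3.10.9 and pandas 2.3.3 in Python 3.11.15 served for the rest. Promoters are from RefSeq. The alternatives were another pseudocount, other filters and scalings, no trend, sample weights, voom on recovered fragments, a replicate block and each mouse left out. The genes and lists were chosen with earlier results of these data known. Besides the 10 genes, the text names the up to 3 most highly expressed tested genes of a list, genes of a list at an adjusted p under 0.05, the 2 genes most alike to each tested gene, and others named as picked later. Same-numbered mice of the groups were not paired (correlations of deviations 0.0739, -0.0163 and -0.0802).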

Additional observations from a re-analysis of the deposited data

Results flagged for a closer look

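Among 24 sets of sham-operated values tested for a mouse that stands apart, 3 were marked, where 1.2 are expected by chance. The test divides the gap between the extreme mouse and its neighbour by the range of the group, with the 95% critical value for 4 mice as the limit. For Chad the value was 1.00, because sham replicate 4, at 0.12 on the log2(FPKM + 1) scale from 3 fragments, was the only sham-operated mouse with any fragment. For Sox9 the value was 0.839, with sham replicate 1 the lowest at 0.45 and the other sham-operated mice at 0.62 to 0.65. For Sox9 minus the fibroblast markers the value was 0.871, again through sham replicate 1, at -3.22. No explanation was tested for these values.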

How the results depend on the processing

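The count of the 10 genes at an adjusted p under 0.05, which was 0, stayed at 0 under every alternative except 2. It was 10 with sample weights, where MI replicate 3 had a weight of 437 and the other mice 1.32 or less, and leaving out each mouse gave 0 to 9, the 9 without MI replicate 2. The median log2 fold change of the 10 genes, 1.26, was 2.70 with a pseudocount of 0.1, 1.92 with TPM, 3.44 with voom on recovered fragments and 2.69 with a filter on the mean, over fewer genes, and 0.95 to 1.84 with each mouse left out. Over all genes the calls at an adjusted p under 0.05 were 2 in the higher and 1 in the lower direction. The higher count was 5 with a pseudocount of 0.1, 10 with median log-ratio scaling or quantile normalization, 7636 with sample weights, 1 with voom, 0 with the replicate block, 20 without a filter, 0 with a filter on the mean and 0 to 6512 with each mouse left out, namely 6512 without MI replicate 2, 4 without MI replicate 1 and 0 without MI replicate 3 or any 1 sham-operated mouse. The lower count was 0 with TPM, 5 with median log-ratio scaling or quantile normalization, 2316 with sample weights, 0 with the replicate block, 0 with a filter on the mean and 0 to 1683 with each mouse left out, the 1683 without MI replicate 2 and 0 without sham replicate 1, sham replicate 3 or MI replicate 3. Beside the counts of 0, limma gave 4702 genes at an unadjusted p under 0.05 with TPM, 2332 with the replicate block 4740 with the filter on the mean and 1487 to 2738 where a mouse was left out. The sign turned for Mkx with quantile normalization (-0.02), for Comp minus Thbs4 without MI replicate 1 or 3 (range -0.06 to 0.77), for Tnmd minus Scx with a pseudocount of 0.1 (1.35) and with TPM (0.17), and, relative to the fibroblast markers, for Cilp2 (0.63) and Tnmd (0.17) with a pseudocount of 0.1. The pseudocount sets how far low genes are compressed. For the other turns the cause was not tested. Under the remaining alternatives that were run, each of the 10 genes kept its direction. Depth limits Mkx, Chad, Tnmd and Cilp2, which rest on few sham fragments.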
